A study of Mus musculus with 40 samples.

Results

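The mRNA of 11 mouse glioma cell lines was set against that of 5 normal cortices, out of a series of 40 samples. Each sample was hybridised to an Affymetrix mouse genome array of its own. The lines were all samples whose title says glioma cell line, apart from 2 lines from early biopsies, and the cortices were all samples titled normal cortex. The lines carried the genotype hGFAP-cre+;p53LSLR172H/floxE2-10 and came from malignant gliomas of these mice. Cre recombinase, driven by the human GFAP promoter in neural cells, activates the mutant p53 allele and deletes the coding exons of the other allele. Of the cortices, 3 (cortices 30, 31 and 32) were hGFAP-cre+;p53floxE2-10/+ and 2 (cortices 33 and 34) were hGFAP-cre-;p53floxE5-6/floxE5-6. All mice were kept on a mixed background of inbred strains. Lines and cortices are numbered here as their arrays are. The lines were at an early passage and had grown as spheres in medium for neural stem cells, with bFGF, EGF and the supplements N2 and B27, whereas the cortices were tissue. Tumor against normal brain and culture against tissue therefore cannot be told apart. By the study's methods each of the 11 R172H gliomas of the series was paired with a line derived from it, but the labels do not say which glioma belongs to which line, and they give neither the age nor the sex of an animal. Lines and cortices differ in genotype and so come from different animals. The labels name no animal. Unless another model is named, the p-values rest on how much arrays vary within each group, pooled over all 40 samples. The gliomas and the early biopsy lines thus add to this spread. The number of arrays limits the precision of the p-values.

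Malignant gliomas hold dividing cells that share programs with the progenitors of glia and with neural stem cells. Medium with EGF and bFGF is known to select such dividing cells, while neurons, myelinating oligodendrocytes, microglia and vessels are not known to be carried along in sphere cultures. The normal cortex is made up largely of cells that have left the cell cycle, with neurons and their synapses, astrocytes, myelin, microglia and vessels. Genes of the cell cycle come in waves. Those of DNA replication are known targets of E2F factors, and those of mitosis are known targets of the DREAM and B-Myb complexes and of NF-Y. E2F factors bind motifs such as TTTCCCGC, the DREAM and B-Myb complexes act through the cell cycle genes homology region TTTGAA, and NF-Y binds CCAAT.

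Genes of mitosis and of DNA replication moved together in the comparison described below, so the promoters of 4 of them are shown. Ube2c, Top2a and Cdk1 were the members of the mitosis list that rose most, and Mcm3 was the member of the replication list that rose most among those with TTTCCCGC in this window. Each sequence runs 5′ to 3′ along the gene, from 250 bases before to 50 bases after the start that RefSeq annotates on build GRCm38.p6. Capitals mark CCAAT and TTTGAA in the promoters of the mitosis genes, and CCAAT and TTTCCCGC in that of Mcm3, each on either strand. On the opposite strand CCAAT reads as ATTGG. There TTTGAA reads as TTCAAA. The letters TTTCCCGC then read as GCGGGAAA.
Ube2c, chr2:164769679-164769978, plus strand: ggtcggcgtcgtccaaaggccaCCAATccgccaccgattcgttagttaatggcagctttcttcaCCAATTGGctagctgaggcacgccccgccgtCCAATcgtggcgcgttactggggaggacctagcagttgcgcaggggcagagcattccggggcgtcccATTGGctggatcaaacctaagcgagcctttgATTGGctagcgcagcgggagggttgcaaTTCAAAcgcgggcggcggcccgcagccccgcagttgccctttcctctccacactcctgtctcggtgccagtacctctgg
Top2a, chr11:99024140-99024439, minus strand: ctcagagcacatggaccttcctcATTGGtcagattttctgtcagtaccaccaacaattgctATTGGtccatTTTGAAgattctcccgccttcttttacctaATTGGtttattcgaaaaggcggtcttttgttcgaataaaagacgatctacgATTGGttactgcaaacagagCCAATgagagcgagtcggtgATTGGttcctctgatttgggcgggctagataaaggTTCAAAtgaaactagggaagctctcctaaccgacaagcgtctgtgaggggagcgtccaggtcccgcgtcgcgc
Cdk1, chr10:69352863-69353162, minus strand: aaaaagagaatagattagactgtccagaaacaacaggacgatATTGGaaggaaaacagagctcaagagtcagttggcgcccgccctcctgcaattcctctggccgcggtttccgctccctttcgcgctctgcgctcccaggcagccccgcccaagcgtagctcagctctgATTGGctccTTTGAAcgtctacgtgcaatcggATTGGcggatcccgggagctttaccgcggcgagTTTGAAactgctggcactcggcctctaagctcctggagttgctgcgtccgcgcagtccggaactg
Mcm3, chr1:20820263-20820562, minus strand: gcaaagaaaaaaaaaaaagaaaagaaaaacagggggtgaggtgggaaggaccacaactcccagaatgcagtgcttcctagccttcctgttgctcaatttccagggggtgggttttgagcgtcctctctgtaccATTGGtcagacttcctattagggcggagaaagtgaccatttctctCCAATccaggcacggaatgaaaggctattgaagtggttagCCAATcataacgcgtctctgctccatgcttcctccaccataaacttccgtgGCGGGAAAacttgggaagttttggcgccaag
The letters TTTGAA or TTCAAA began 29 bases before the start of Ube2c, 179 and 23 bases before that of Top2a and 71 and 15 bases before that of Cdk1. In the run CCAATTGG of Ube2c, a CCAAT of each strand overlapped the other. In Mcm3 the first letter of GCGGGAAA lay 19 bases after the start, and a CCAAT lay 117, 72 and 32 bases before it. Of the 38 genes of the mitosis list that were measured, 32 had a promoter in the table. TTTGAA stood on either strand in 75.0% of them, CCAAT in 75.0% and both in 65.6%. Of 33 matches to TTTGAA on either strand in these promoters, 10 began within 100 bases before the start. Counted as bases before the start, the matches began at 179 to -40, with a median of -2, just after the start. Matches were counted in all 34 promoters of the 32 genes, and the promoters of Ect2 overlap each other, as do those of Prc1. Positions were not counted for other genes, so this count has no background. Of the 14452 genes of the arrays with a promoter in the table, TTTGAA stood in 15.7%, CCAAT in 42% and both in 6.21%. For the 27 replication genes with a promoter, the shares were 14.8% for TTTGAA and 63% for CCAAT. TTTCCCGC stood in 18.5% of the replication promoters and in 1.87% of those of all genes of the arrays. These are matches of letters and do not show that a factor was bound.

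Lines and cortices differed widely. The deposited signals, read as log2, ran from 2.00 to 14.47, and the median of an array was 5.24 to 5.47. A gene is called dim below where its group mean was under 5.36, the median of these medians. No detection call was made, so a dim gene may be weakly expressed or not expressed. Each gene was represented by its brightest probe set, and where the mean of all its probe sets moved a difference by more than 1.5 times, that value is given beside it as the probe set mean. Over 18193 genes, a linear model in limma called 4641 genes higher in the lines (25.5%) and 4422 lower (24.3%) at an adjusted p under 0.05. A difference of at least 2-fold was reached by 2539 of those that were higher (14%) and by 2811 of those that were lower (15.5%). The shares of 25.5% and 24.3% are the background for each count of list members, and a count near them says nothing particular of a list. The median difference over all genes, lines minus cortex, was 0.02 on the log2 scale. Past the test, 2900 genes were higher in every line than in every cortex (15.9%) and 2725 were lower (15%). The arrays of the lines correlated with each other at 0.936 to 0.975 and those of the cortices at 0.978 to 0.992. Lines correlated with cortices at 0.816 to 0.877. Each value is Pearson's r across the probe sets that were not controls, and probe sets are not independent. Of the 101 genes that rose at least 16-fold, 85 were dim in cortex, and of the 431 that fell as much, 287 were dim in the lines. In a bulk sample, fewer cells of a type and less RNA per cell cannot be told apart.

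The cortices were not all alike, which touches the genes of regions and of choroid plexus below. Ttr, which encodes transthyretin and marks the choroid plexus, had log2 signals of 13.27, 13.07, 11.75, 4.82 and 12.61 in cortices 30 to 34. It was thus high in every cortex but cortex 33, and at 4.36 to 4.90 in the lines. Emx1, a factor of the dorsal cortex, was at 5.86 and 5.75 in cortices 30 and 34, and at 7.19, 6.93 and 7.43 in cortices 31, 32 and 33. Zic1, a factor of the septum and other regions, was highest in the same pair, at 10.74 and 11.57 against 8.47, 8.56 and 8.82 in the others. Snap25, a protein of the synaptic release machinery and a marker of neurons, was between 13.30 and 13.53 in every cortex.

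Genes of dividing cells rose most among the lists. Of 38 measured genes of mitosis, kinetochore and spindle, 36 rose, against 25.5% of all genes, none fell, and the median difference was 4.94. Of 31 genes of DNA replication and licensing, 29 rose and none fell, with a median of 3.03. Anln and Foxm1 of the mitosis list, at 0.50 and 0.91, and Orc1 and Fen1 of the replication list, at 0.23 and 0.41, were the exceptions, named after their values were seen. Foxm1 and Orc1 passed with their probe set means (1.24, adjusted p = 0.0037, and 1.11, adjusted p = 0.000509), and that of Anln was -0.16. Foxm1 also passed in the model without the tumors (adjusted p = 0.0152) and without line 49 (adjusted p = 0.048) or 51 (adjusted p = 0.0345), and Fen1, whose probe set mean of 0.66 did not pass (adjusted p = 0.0672), passed with array weights (0.46, adjusted p = 0.0121) and without probe sets that may cross-hybridise (0.90, adjusted p = 0.0382). In cortex, 35 of the mitosis genes and 12 of the replication genes were dim, so that their cortex means lay below the median array signal.
Ube2c, whose product attaches ubiquitin to mitotic proteins for the anaphase-promoting complex, was between 9.52 and 12.71 in the lines, with a median of 11.80, against 4.66, 4.35, 4.54, 3.36 and 4.39 in the cortices. Every line was above every cortex, by a mean difference of 7.19 (standard error 0.65, adjusted p = 6.1e-11). Top2a, the topoisomerase that untangles replicated DNA, ran from 8.84 over a median of 11.51 to 12.37 in the lines, and was at 4.23, 5.06, 4.68, 4.33 and 4.63 in the cortices. Cdk1, the kinase that drives entry into mitosis, had a lowest signal of 8.58, a median of 11.06 and a highest of 11.83 in the lines, against 3.89, 4.61, 4.24, 5.01 and 3.85 in the cortices. Neither gene overlapped between the groups, and the differences were 6.73 for Top2a (adjusted p = 3.8e-11) and 6.50 for Cdk1 (adjusted p = 6.28e-11). The probe set mean of Top2a was 2.94. Mki67, which encodes the proliferation antigen Ki67, was 7.50, 10.44 and 11.32 in the lowest, the median and the highest line, against 3.65, 3.72, 3.36, 3.81 and 3.71 in the cortices. It was higher in the lines by 6.36 (adjusted p = 1.52e-10). Rrm2, a subunit of the reductase that makes deoxynucleotides, rose by 6.20 and was the replication gene that rose most, followed by Mcm3 at 4.78 (probe set mean 3.11) and Mcm6 at 4.50, subunits of the replicative helicase. Bub1, Nusap1, Pbk, Ccna2, Birc5 and Cdc20, genes of spindle, spindle checkpoint and mitotic cyclin, rose by 5.88 to 6.35, and with Aspm, Dbf4 and Pclaf (probe set means 2.95, 3.08 and 3.75) they were among the 15 genes of all that rose most without overlap. Line 51 was the lowest of the 11 lines in both lists. Its score, the median difference of a list from the cortex mean, was 1.12 for replication and 2.32 for mitosis, where the highest scores were 3.70 in line 55 and 6.20 in line 61.

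**Figure D1:**
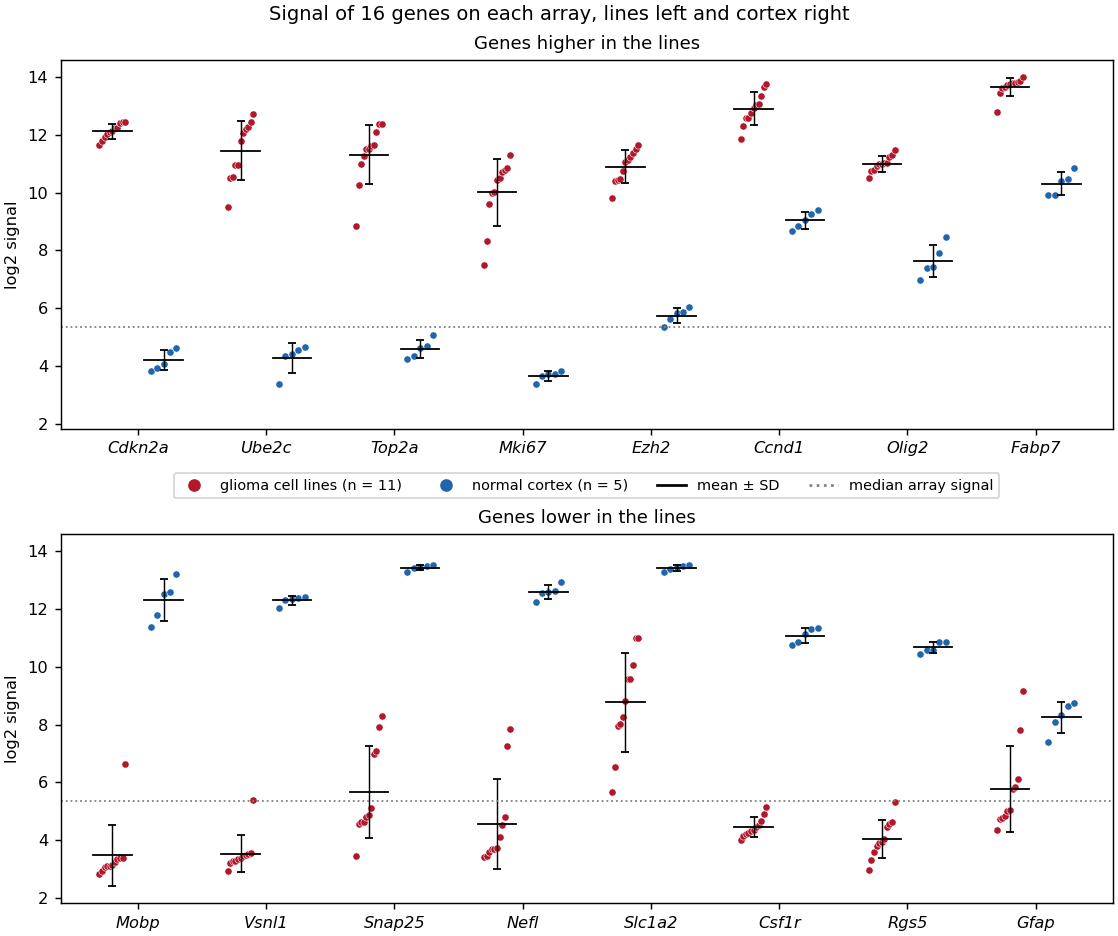
Log2 signal (vertical axis) of 16 genes on each array, with the 11 glioma lines in red and to the left of the 5 cortices in blue. Bars give the mean ± SD and the dotted line the median array signal. Among the genes of the upper panel the lines and cortices do not overlap, with Cdkn2a between 11.66 and 12.46 in lines. In the lower panel only Gfap overlaps.

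Genes that drive the step from G1 into replication rose, and so did genes that hold it back. Of 26 genes of G1 cyclins, their kinases, their inhibitors and E2F factors, 18 rose and none fell (median 1.81). Cdkn2a, which encodes p16Ink4a and p19Arf, lay between 11.66 and 12.46 in the lines, with a median of 12.14, and at 3.93, 4.62, 4.07, 3.83 and 4.47 in the cortices. The difference of 7.94 (standard error 0.50, adjusted p = 6.41e-15) was the largest among genes that rose, and the spread among the lines was small, with an SD of 0.27. Cdkn2b, the neighbor that encodes p15Ink4b, rose by 3.17 (adjusted p = 0.00121) but fell into separate levels over the lines. It was at 5.22, 6.59, 4.60 and 5.54 in lines 61, 63, 65 and 68 and at 7.86 to 9.35 in the other lines, against 4.13 to 4.50 in cortex. Cdkn2b was named after its values were seen. Cdk4, the kinase partner of D cyclins and a target of p16Ink4a, was 10.89, 11.44 and 11.98 in the lowest, median and highest line and 8.05, 8.05, 8.08, 7.98 and 8.19 in the cortices, a difference of 3.38 (adjusted p = 1.04e-09). Ccnd1, the gene of cyclin D1, ran from 11.85 to 13.78 in the lines (median 12.93) and was 9.26, 9.41, 8.68, 9.06 and 8.86 in the cortices. Like Cdk4 it did not overlap, with a difference of 3.85 (adjusted p = 2.2e-10). Ccnd2, the gene of cyclin D2, ranged from 7.16 in line 53 to 13.68 in line 55, and its difference of 1.78 did not pass the test (adjusted p = 0.0914). Without line 53 it was 2.21 (adjusted p = 0.0218), and with array weights 2.04 (adjusted p = 0.00403). Myc rose by 3.85 (adjusted p = 7.55e-08), with 8.39 to 10.97 in the lines and 5.55 to 6.05 in the cortices, and Rbl1, which encodes the pocket protein p107, by 3.90 (probe set mean 1.77).

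Most DNA repair genes rose. Of 24 genes of the DNA damage checkpoint and repair, 22 rose, 1 fell and the median was 1.84. Rad51ap1 and Exo1, of homologous recombination and resection, rose by 4.20 and 4.08 (probe set mean 2.34 for Exo1), the checkpoint kinase gene Chek1 by 4.06 (probe set mean 1.96) and Brca1 by 3.17 (probe set mean 1.26). The gene that fell was Trp53bp1, of double-strand break repair, at -0.57, whose probe set mean of 0.05 did not pass (adjusted p = 0.806). Of 24 genes of p53 and its targets, 9 rose, 4 fell and 11 did not pass, with a median of 0.01, against 25.5% higher and 24.3% lower of all genes. With 1 sample left out, 6 to 9 rose, the fewest without line 68. Btg2, a growth-restraining gene, was 9.85 to 12.27 in the lines (median 10.65), against 7.81, 8.67, 8.57, 8.55 and 7.99 in cortex, and rose by 2.39 (adjusted p = 4.27e-06). Ddit4, an inhibitor of mTOR complex 1 induced by stress and by p53, rose by 2.09. Perp, a membrane protein of apoptosis and adhesion, had a difference of -2.57 and Zmat3, an RNA-binding target of p53, of -0.93. The p53 gene itself was not analysed here.

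Nearly all neuronal genes fell. Of 26 genes of the synapses of excitatory neurons, 25 fell, against 24.3% of all genes, and none rose (median -4.51). The counts were 20 of 21 for the neuronal cytoskeleton and pan-neuronal genes (median -3.85), 15 of 17 for GABAergic interneurons (median -4.46) and 24 of 24 for voltage-gated potassium, sodium and calcium channels (median -4.58), with no member of these lists higher in the lines. In the lines, 10, 4, 11 and 9 members of the 4 lists were dim. Vsnl1, a neuronal calcium sensor, was 2.94, 3.37 and 5.38 in the lowest, median and highest line and 12.39, 12.31, 12.41, 12.35 and 12.05 in the cortices. The difference was -8.78 (standard error 1.16, adjusted p = 8.43e-08). Snap25 ran from 3.46 over a median of 4.88 to 8.29 in the lines, against 13.43, 13.51, 13.53, 13.44 and 13.30 in the cortices, a difference of -7.77 (adjusted p = 1.59e-07). The lines with more than 6 were lines 47 (8.29), 59 (7.92), 55 (7.10) and 53 (6.99), and each stayed below every cortex. Camk2a, the kinase of postsynaptic plasticity, had a difference of -7.25 (probe set mean -4.09), and Gria1, an AMPA receptor subunit, of -7.63. Nefl, the light neurofilament, was 3.41, 3.71 and 7.85 in the lowest, median and highest line, against 12.94, 12.60, 12.63, 12.25 and 12.56 in cortex, a difference of -8.04 (adjusted p = 1.3e-06). Of interneuron genes, Calb1, a calcium buffer, had a difference of -8.15 (probe set mean -3.78), Slc32a1, the vesicular GABA transporter, of -6.83 (probe set mean -1.66) and Gad2, which makes GABA, of -6.25. Its relative Gad1 stayed at 6.50 to 10.17 in the lines, against 12.16 to 12.59 in cortex (difference -3.54, adjusted p = 0.000755). The smallest difference that passed in the 4 lists was that of Map2, a microtubule protein of dendrites. It was 10.39 to 12.25 in the lines and 12.38 to 12.69 in cortex, a difference of -0.86 that passed (adjusted p = 0.00301) while its probe set mean did not (-0.33, adjusted p = 0.138). Of the channels, Scn2b and Kcnc2, subunits of sodium and potassium channels, fell the most, with differences of -7.09 (probe set mean -3.68) and -6.97. Slc12a5, the chloride exporter of mature neurons, Slc24a2, Hpca, Hpcal4, Elmod1, Nrsn1 and Tmem130 were also among the 15 genes that fell most without overlap, with differences between -8.64 and -7.60. The probe set means of Slc12a5 and Slc24a2 were -4.97 and -4.87.

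Of 18 immediate early genes, which neuronal activity induces, 4 rose, 6 fell and the median was -0.09, counts near the 25.5% and 24.3% of all genes. Those that fell most are known for synaptic roles: Bdnf, a growth factor, was 3.58, 4.89 and 7.82 in the lowest, median and highest line and 8.90, 9.69, 10.05, 9.94 and 8.07 in the cortices (difference -3.84, adjusted p = 0.000868), and Arc, of receptor trafficking, had a difference of -2.95. Ier2 rose by 3.58, at 9.58 to 12.21 in the lines against 6.44 to 7.76 in cortex (adjusted p = 8.02e-11), and Fos by 1.76 (1.36 with cyclic loess normalization, adjusted p = 0.0548). Line 51, the lowest in the cell cycle lists, had the highest score of this list, 1.25, and line 47 the lowest, -1.31.

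Among glial genes, most of those of mature astrocytes and of myelin fell, while many of those of progenitors rose. Of 21 astrocyte genes, 13 fell and 1 rose (median -2.19), and of 17 genes of mature oligodendrocytes and myelin 15 fell and none rose (median -3.77). Oligodendrocyte progenitor genes had 9 of 19 members that rose, 10 that did not pass and none that fell (median 1.56). Of 25 genes of neural stem cells and radial glia 17 rose and 2 fell (median 1.45). Mobp, a protein of compact myelin, had the largest difference of all genes that fell, -8.84 (adjusted p = 1.64e-08, and probe set mean -5.43). It was between 2.82 and 3.39 in 10 lines and 6.64 in another, against 12.53, 11.38, 12.60, 11.79 and 13.23 in cortex. Mbp, the myelin basic protein, differed among the lines from 4.69 in line 63 to 12.56 in line 65, and was 13.39 to 13.92 in the cortices (difference -5.51, adjusted p = 2.12e-05). Of the astrocyte genes, the glutamate transporter Slc1a2 ran from 5.66 over a median of 8.80 to 10.996 in the lines, against 13.29, 13.53, 13.45, 13.48 and 13.38 in the cortices (difference -4.66, adjusted p = 1.7e-06, and probe set mean -2.97). The connexin genes Gjb6 and Gja1 had differences of -5.99 and -5.62, and the water channel gene Aqp4 of -4.69. Gfap, the filament of astrocytes, was 4.35, 5.05 and 9.17 in the lowest, median and highest line and 8.32, 7.41, 8.10, 8.76 and 8.64 in the cortices. The groups overlapped, since line 65 was above every cortex and line 47, at 7.80, above cortex 31. The difference of -2.48 passed the test (adjusted p = 0.00838), but not with only the Cre-positive cortices as controls (-2.18, adjusted p = 0.0724). Sox9, a factor of astrocytes and of their progenitors, was the astrocyte gene that rose, by 1.66 (adjusted p = 0.0112).

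Olig2, a factor of oligodendrocyte progenitors that most gliomas express, was narrow in range over the lines, at 10.51, 10.99 and 11.49 in the lowest, median and highest line. In the cortices it was 8.45, 7.44, 7.37, 6.97 and 7.92, so that no line overlapped a cortex (difference 3.37, standard error 0.74, adjusted p = 0.000234). Dll3, a Notch ligand of progenitors, rose by 3.78, Vcan, a proteoglycan, by 3.34 (probe set mean 1.24) and Cspg4, the gene of NG2, by 2.80. Pdgfra, the receptor that marks these progenitors, was 9.60, 11.04 and 13.81 in the lowest, median and highest line and 9.80, 9.62, 9.55, 9.79 and 9.90 in the cortices, and its difference of 1.39 missed the threshold (95% interval 0.16 to 2.62, adjusted p = 0.0546). It passed in several other settings, among them array weights (1.39, adjusted p = 0.0018), the probe set mean (1.84, adjusted p = 0.038) and the model without the tumors (1.39, adjusted p = 0.0457), and when line 49, 51, 59 or 68 was left out, at differences of 1.49 to 1.55. Of the stem cell genes, Sox2 was 11.78 to 12.83 in the lines (median 12.09) and 9.56, 9.61, 9.75, 9.62 and 10.20 in the cortices (difference 2.43, adjusted p = 0.000194). Sox3 rose by 4.45 (probe set mean 2.61), Vim, the intermediate filament vimentin, by 3.89, Sox4 by 3.39 and Nes, which encodes nestin, by 2.36. Fabp7, a fatty acid binding protein of radial glia, was 12.81, 13.77 and 14.01 in the lowest, median and highest line, near the upper end of the array's range, and 10.48, 9.92, 9.92, 10.41 and 10.84 in the cortices (difference 3.35, adjusted p = 7.9e-10). Of the 2 stem cell genes that fell, Id4, an inhibitor of differentiation factors, had a difference of -3.56 with lines from 3.77 to 11.03. Lhx2, a factor of the forebrain, was at -1.24, and its call was lost without cortex 31 (-1.12, adjusted p = 0.055), 32 (-1.12, adjusted p = 0.0545) or 33 (-1.05, adjusted p = 0.0714).

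**Figure D2:**
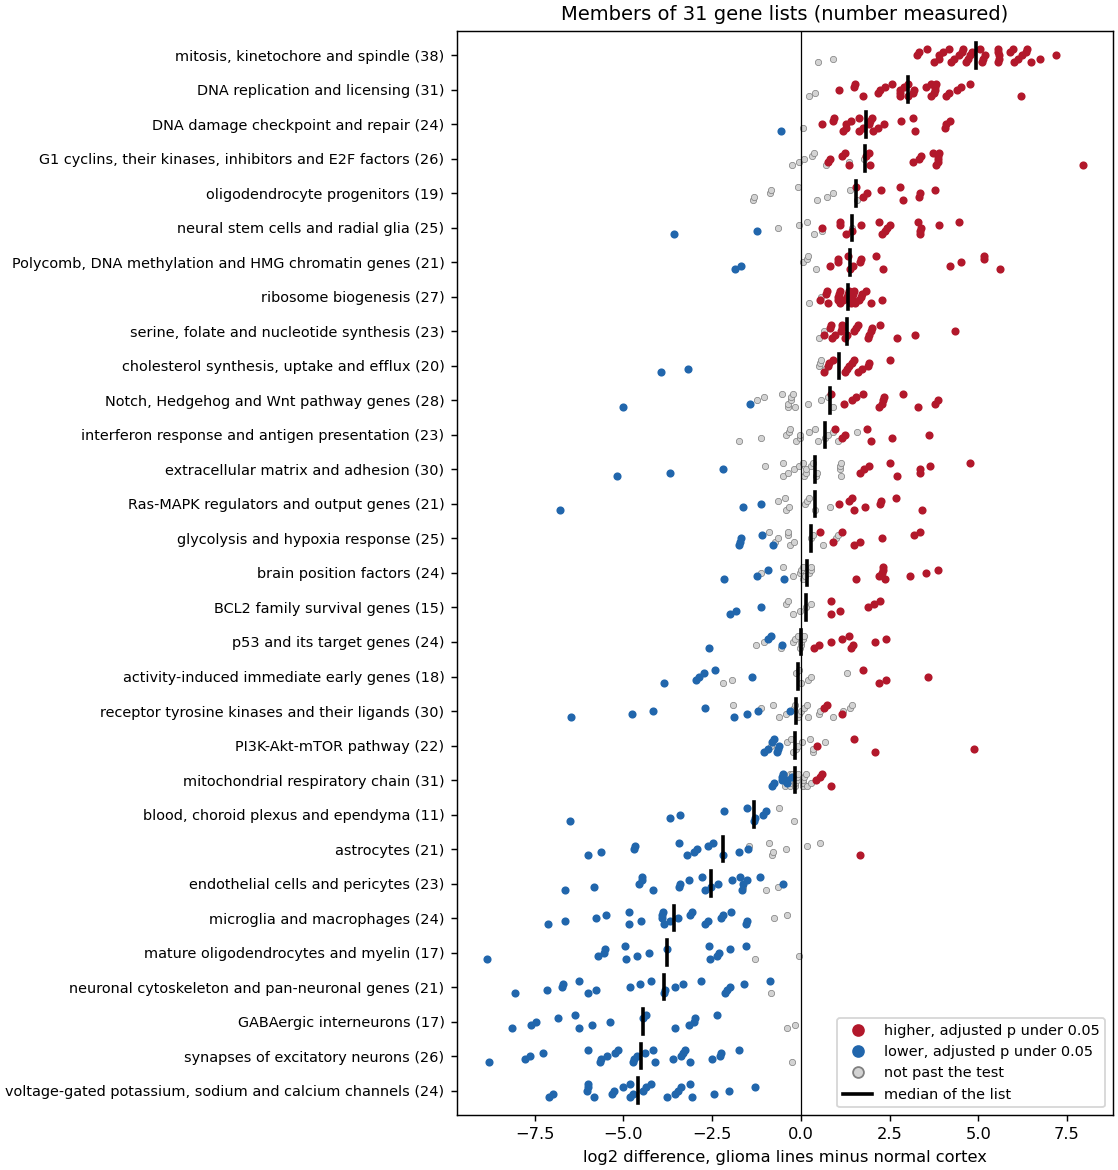
Log2 difference, glioma lines minus normal cortex (horizontal axis), of each measured member of the 31 gene lists, one row for each list with the number measured. Red points rose and blue points fell at an adjusted p under 0.05, grey points did not pass, and black bars are medians. The mitosis list lies farthest to the right (median 4.94) and the channel list farthest to the left (median -4.58).

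Most genes of microglia, vessels and choroid plexus were below the median array signal in the lines. Of 24 genes of microglia and macrophages, 22 fell and none rose (median -3.58), and 22 were dim in the lines. Of 23 genes of endothelial cells and pericytes, 20 fell and none rose (median -2.53, with 17 dim in the lines), and of 11 genes of blood, choroid plexus and ependyma 9 fell and none rose (median -1.32, with all 11 dim). The microglia score of the lines ran from -3.75 to -3.21. Csf1r, the receptor on which microglia depend, was 3.99, 4.36 and 5.14 in the lowest, median and highest line and 10.76, 11.15, 10.86, 11.34 and 11.32 in the cortices. Its difference was -6.64 (standard error 0.36, adjusted p = 9.61e-17, and probe set mean -4.39). Ctss, which encodes the protease cathepsin S, had a difference of -7.11 and was above 5 in only 1 line, at 6.84. Rgs5, of pericytes, ran from 2.94 over a median of 3.94 to 5.32 in the lines, against 10.60, 10.46, 10.86, 10.58 and 10.87 in the cortices (difference -6.64, adjusted p = 3.64e-18). Cldn5, of the tight junctions of brain endothelium, was at -4.47 and Pdgfrb, the receptor of pericytes, at -4.17. Ttr of the choroid plexus had a difference of -6.51 (adjusted p = 7.98e-10), and cortex 33, without this signal, overlapped the lines.

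Tumors of the same genotype are tissue too. The 11 lines were tested against the 11 R172H gliomas in the same model, where 1317 genes were higher in the lines (7.24%) and 1170 lower (6.43%). By histology the study found normal tissue in a tumor of this set, and the labels do not say which array it is. The highest list scores among the gliomas were -0.17 for excitatory synapses and 0.33 for interneurons. A line and the glioma it came from share an animal, and the test treats them as independent since the pairs are not known. Both comparisons use the same lines, so their values are only set side by side. For mitosis, replication, G1 and DNA repair no member passed between lines and gliomas in either direction, with median differences of 0.33, 0.00, 0.05 and 0.13. Of the microglia genes, 24 of 24 were lower in the lines than in the gliomas (median -4.49), and of the vessel genes 18 of 23 (median -1.73). Ctss was 3.69 to 6.84 in the lines and 11.15 to 13.40 in the R172H gliomas, where cortex was 11.01 to 11.86. Lines minus gliomas was -7.99 (adjusted p = 2.55e-23), and lines minus cortex -7.11. Genes that were lower in the lines than in cortex but higher in R172H gliomas than in cortex, both past the test, numbered 60. The 5 of these that were lowest in the lines against cortex were Ctss, C1qb, Srgn, C1qa and Tyrobp, genes of complement, granules and myeloid signalling. Lines minus gliomas was -7.42 for C1qb, -7.01 for Srgn, -6.83 for C1qa and -6.72 for Tyrobp. The opposite pattern, higher in lines and lower in gliomas than in cortex, held for 3 genes of lipid and xenobiotic metabolism. Ephx1, an epoxide hydrolase, was 8.16, 9.92 and 10.97 in the lowest, median and highest line, 5.90, 7.57 and 9.19 in the gliomas and 8.76, 8.79, 8.59, 8.51 and 8.82 in the cortices. Lines minus gliomas was 2.26 for Ephx1, 1.35 for the fatty acid desaturase gene Fads1 and 1.81 for Acss2, which makes acetyl-CoA from acetate. Each passed the test, but the choice of these genes by their moves from cortex fixed the sign in advance. The calls of these 3 genes against cortex were close to the threshold and were lost with cyclic loess normalization (0.87, 0.29 and 0.37, adjusted p = 0.0886, 0.353 and 0.253). The call of Acss2 was also lost without cortex 31, 32, 33 or 34 (adjusted p from 0.0616 to 0.0904) and without line 51, 59, 61 or 65 (adjusted p = 0.0554, 0.0782, 0.0678 and 0.0734). With only the Cre-positive cortices as controls, the calls of Ephx1 (1.15, adjusted p = 0.0815), Fads1 (0.70, adjusted p = 0.0521) and Acss2 (0.53, adjusted p = 0.19) were lost.

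**Figure D3:**
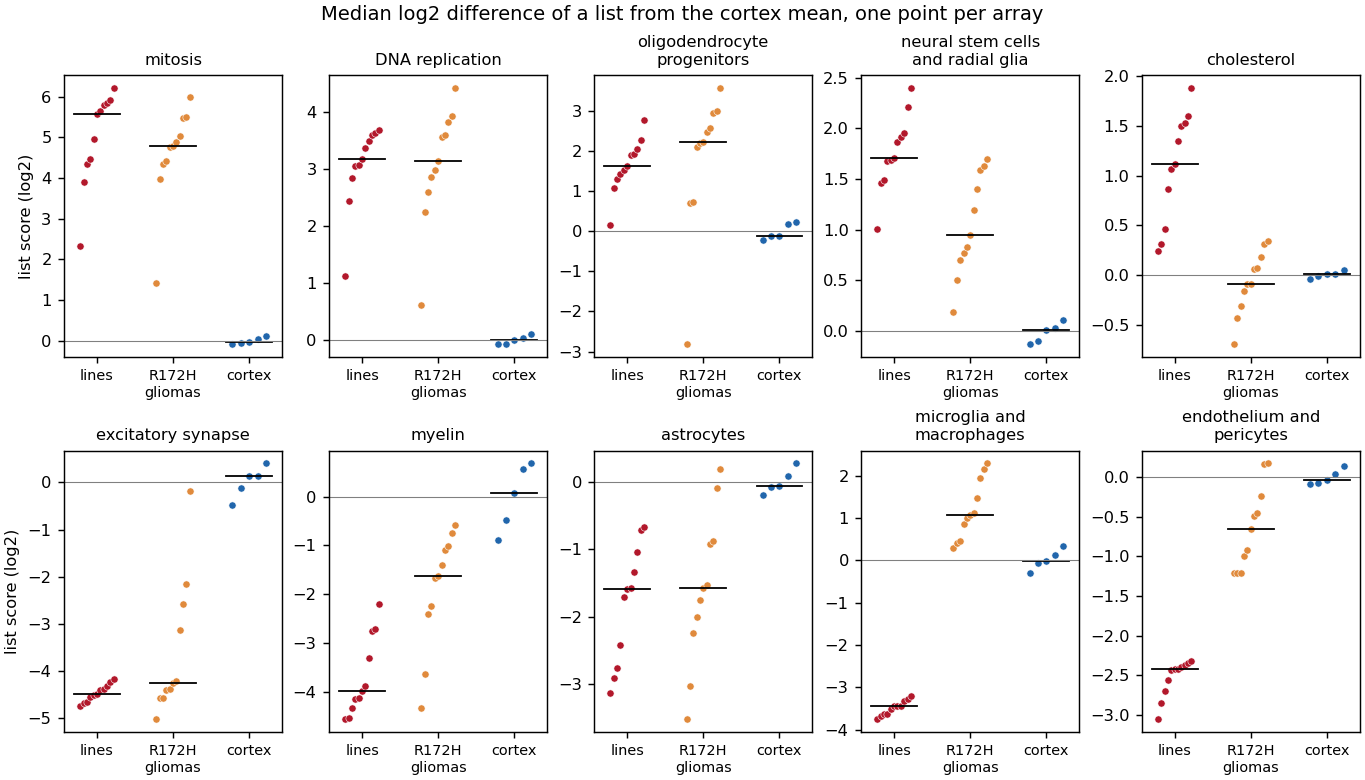
List score (vertical axis, the median log2 difference of a list's genes from their mean in the cortices) of each array for 10 gene lists, with the 11 glioma lines in red, the 11 R172H gliomas in orange and the 5 cortices in blue. Bars are group medians. The microglia scores of lines (-3.75 to -3.21) lie below and those of gliomas (0.29 to 2.29) reach above the cortices, while in the mitosis panel lines and gliomas overlap.

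Of 30 receptor tyrosine kinases and ligands, 3 rose and 8 fell (median -0.12), against 25.5% and 24.3% of all genes, so that the count that fell was near the background. Erbb2, a relative of the EGF receptor, rose by 1.15 (adjusted p = 0.0553 with the methods' t-test in place of limma), and it was the only member of the list that rose when cortex 31, 32 or 34 was left out. Fgf13 and Fgf12, intracellular FGF homologs that bind sodium channels of neurons, had differences of -6.48 and -4.76. Egfr, the EGF receptor, was 3.52, 8.95 and 11.03 in the lowest, median and highest line and 6.99, 7.23, 7.15, 7.43 and 6.93 in the cortices, a difference of 1.45 that did not pass (95% interval -0.31 to 3.21, adjusted p = 0.168). Line 53 held the lowest value, and without it the difference was 1.96 (adjusted p = 0.0285). The probe set mean, 0.80, also passed (adjusted p = 0.0361), as did the difference of 1.60 with array weights (adjusted p = 0.0272). Egfr was higher in the lines than in the R172H gliomas (3.65 to 8.75), by 2.69 (adjusted p = 0.00691), with a probe set mean of 1.13 (adjusted p = 0.00183). Of 21 Ras-MAPK regulators and output genes, 9 rose and 3 fell (median 0.39). Spry1 and Spry4, feedback inhibitors that ERK signalling induces, rose by 3.41 and 2.26, and the ETS factor Etv4, also an output of ERK signalling, by 2.68. Spry1 was 9.94, 10.61 and 11.40 in the lowest, median and highest line and 7.22, 7.41, 7.24, 7.49 and 7.12 in the cortices (adjusted p = 1.69e-06). The largest difference downward was that of Rasgrp1, a neuronal activator of Ras, at -6.78 (probe set mean -3.38). Nf1, which encodes neurofibromin, had a difference of -0.32 that did not pass (adjusted p = 0.207), and its probe set mean was 0.15. With array weights it was -0.33 and passed (adjusted p = 0.0436). Of 22 genes of the PI3K-Akt-mTOR pathway, 4 rose and 7 fell (median -0.17). Eif4ebp1, the translation repressor that mTOR complex 1 inactivates, was 9.86, 10.70 and 11.87 in the lowest, median and highest line and 5.41, 5.85, 6.61, 6.57 and 5.88 in the cortices, and rose by 4.89 (adjusted p = 9.35e-10). The members that fell had small differences. Mtor was at -1.05, Tsc1 at -0.91, Pik3ca at -0.63 and Rictor at -0.66, and the probe set means were -0.03, 0.03, -0.17 and 0.60, so that Tsc1 and Rictor changed sign. Of 28 Notch, Hedgehog and Wnt pathway genes, 13 rose and 2 fell (median 0.81). The Notch ligand gene Dll1 rose by 3.29 and the receptor gene Notch1 by 2.29, while Dkk3, a secreted protein of the Dickkopf family, had a difference of -5.02. Lef1 was at -1.44 and lost its call without cortex 30 (-1.20, adjusted p = 0.061) and with only the Cre-positive cortices as controls (-1.36, adjusted p = 0.0707).

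Biosynthetic genes rose broadly and by less than those of the cell cycle. Of 23 genes of serine, folate and nucleotide synthesis, 21 rose and none fell (median 1.30), and of 27 genes of ribosome biogenesis 25 rose and none fell (median 1.34). Aldh1l2 and Shmt2, mitochondrial enzymes of folate metabolism, rose by 4.36 and 3.20, and Phgdh, which starts serine synthesis, by 1.90. Shmt2 was 9.26, 10.25 and 10.77 in the lowest, median and highest line and 7.02, 7.08, 6.98, 6.75 and 6.84 in the cortices (adjusted p = 2.06e-09). Ddx21 and Fbl, which process and modify ribosomal RNA, rose by 2.30 and 1.83. Of 20 genes of cholesterol synthesis, uptake and efflux, 14 rose and 2 fell (median 1.08). The enzyme genes Dhcr7, Lss and Fdps rose by 2.51, 1.92 and 1.89 (probe set mean 1.01 for Fdps). The 2 genes that fell remove cholesterol from the cell: Cyp46a1, the neuronal cholesterol hydroxylase, at -3.94 and Abcg1, an efflux pump, at -3.17. Lss was 8.18 to 10.83 in the lines (median 9.78), 7.15 to 8.74 in the R172H gliomas, and 7.53, 7.58, 7.67, 7.79 and 7.75 in the cortices. Against those gliomas, 16 of the 20 genes were higher in the lines and 1 was lower (median 1.24), among them Sqle by 1.26 (adjusted p = 4.43e-05). Of 25 genes of glycolysis and the hypoxia response, 8 rose and 5 fell against cortex (median 0.30), and 9 were higher and none lower than in the gliomas. Hk2, the hexokinase of growing cells, was 6.83, 9.97 and 11.67 in the lowest, median and highest line and 6.36, 6.70, 6.32, 6.12 and 6.35 in the cortices, and rose by 3.36 (adjusted p = 3.04e-06). Egln3 and Vegfa, both induced by low oxygen, rose by 3.18 and 2.28. Pfkp and Pfkm, phosphofructokinase genes abundant in brain and muscle, had differences of -1.73 (probe set mean -0.91) and -1.71. Without cortex 30, 3 in place of 5 members were lower. Of 31 genes of the mitochondrial respiratory chain, 4 rose and 8 fell (median -0.17), none by as much as 2-fold. Sdhc rose by 0.84 (0.45 with cyclic loess normalization), and Ndufv1 had a difference of -0.80. With cyclic loess normalization 1 member rose and 24 fell (median -0.59), and without cortex 31 2 members rose. Idh1 and Idh2, isocitrate dehydrogenase genes, rose by 2.12 (adjusted p = 2.49e-10) and 1.50 (adjusted p = 2.78e-05, and probe set mean 0.94). Idh1 was 11.13 in the lowest line and 11.81 at the median, 9.77 to 11.14 in the R172H gliomas, from which the lines differed by 1.07 (adjusted p = 9.1e-06), and 9.48 to 9.86 in the cortices.

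Of 21 Polycomb, DNA methylation and HMG chromatin genes, 15 rose and 2 fell (median 1.37). Ezh2, the Polycomb methyltransferase of dividing cells, was 9.81, 11.07 and 11.66 in the lowest, median and highest line and 5.87, 5.81, 5.63, 5.35 and 6.03 in the cortices, and rose by 5.16 (standard error 0.43, adjusted p = 1.08e-11). Its counterpart of resting cells, Ezh1, was 5.89, 6.82 and 8.35 in the lines and 8.65, 8.57, 8.67, 8.58 and 8.28 in the cortices, and had a difference of -1.69 (adjusted p = 2.02e-05). The highest line overlapped cortex 34. Hmgb2, a chromatin protein, rose by 5.60 and Uhrf1, which recruits the maintenance DNA methyltransferase, by 5.17. H3f3a, which encodes histone H3.3, rose by 1.80 (adjusted p = 0.000107) and was dim in cortex. Of 24 brain position factors, 9 rose and 4 fell (median 0.17), with 10 dim in the lines and 14 in cortex. Irx5 and Irx3, homeobox factors, rose by 3.87 and 3.08, and cortex 30 stood apart with 6.47 and 7.99, against 3.35 to 4.93 and 4.70 to 6.25 in the other cortices. Hoxa9, a homeobox gene of the trunk that the forebrain does not use, ran from 3.29 in line 51 to 9.94 in line 49 and was 3.20 to 3.59 in the cortices (difference 3.52, adjusted p = 0.00676, and probe set mean 2.15). It exceeded 7 in 7 lines. Emx1 had a difference of -0.91, which passed (adjusted p = 0.00113). Without cortex 30 or 33, 2 in place of 4 members of this list were lower.

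Of 30 genes of extracellular matrix and adhesion, 9 rose and 3 fell (median 0.39). Tnc, the gene of tenascin C, a matrix protein of the stem cell niche and of gliomas, was 9.01, 10.70 and 11.56 in the lowest, median and highest line and 6.47, 5.23, 5.48, 4.84 and 5.82 in the cortices, and rose by 4.77 (adjusted p = 3.85e-07). Itgb1, the integrin beta 1 subunit, rose by 3.37 (probe set mean 1.26). Dcn and Col1a2, matrix genes of fibroblasts and meninges, had differences of -5.19 and -3.69 (probe set means -2.62 and -1.82) and were dim in the lines. Of 15 BCL2 family survival genes, 6 rose and 3 fell (median 0.14, and -0.11 with cyclic loess normalization). The killer gene Bak1 rose by 2.23 (probe set mean 1.46), and the survival gene Mcl1 by 2.06 (probe set mean 1.08), with 10.69, 10.87 and 11.54 in the lowest, median and highest line and 8.67, 8.80, 9.12, 9.07 and 8.99 in the cortices. The survival genes Bcl2l2 and Bcl2l1 had differences of -1.84 (probe set mean -0.87) and -1.13. Of 23 genes of the interferon response and antigen presentation, 7 rose and none fell (median 0.69). That count was 3 to 4 without cortex 30, 31, 32, 33 or 34, without line 61 or without line 65. The score of this list was 2.98 in line 65 and -0.30 in line 49, so that the lines spread more widely here than the cortices (-0.22 to 0.25). Scores of the R172H gliomas ran from -0.17 to 3.76. Usp18, which limits interferon signalling, was 11.54 in line 65, 10.54 in line 61 and 4.68 in line 47. Cxcl10, a chemokine induced by interferon, ran from 4.56 over a median of 8.01 to 10.04 in the lines and was 3.93, 3.98, 3.86, 4.45 and 4.93 in the cortices (difference 3.60, adjusted p = 0.00047). Against the R172H gliomas, 8 of the 23 genes were lower in the lines and none higher.

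The lines differed among themselves more than the cortices did. Over the genes, the median SD was 0.33 among the lines and 0.18 among the cortices, and 1423 genes had an SD above 1 among the lines, against 199 among the cortices. The R172H gliomas spread more than the lines, with a median SD of 0.43 and 2445 genes above 1. A wide spread was thus not particular to the lines. Igf2, Met and Sox10, named below, had SDs of 3.31, 2.55 and 2.10 among those gliomas. The gene with the largest SD was Igf2, a growth factor that is imprinted. It was 13.79 to 14.16 in lines 49, 61, 63, 65 and 68 and between 4.48 and 10.28 in the other 6, while the cortices lay between 9.23 and 10.15. Both early biopsy lines were with the first set, at 13.72 and 13.49. Xist, which is transcribed from the inactive X chromosome of females, was at 12.12 to 13.11 in 6 lines and 5.15 to 5.64 in 5, and high in cortices 30 and 31 (11.25 and 11.55) but not in 32, 33 and 34 (5.19, 5.36 and 4.90). Met, the receptor of hepatocyte growth factor, stood at 12.91 in line 47 and 12.96 in line 55 and at 3.40 to 8.59 in the other lines, with the cortices at 4.65 to 7.19. Mycn was 12.95 in line 47 and 6.21 to 8.79 in the other lines, against 7.01 to 7.78 in cortex. Neither gene passed the test as a group difference (Met 1.20, adjusted p = 0.456, and Mycn 0.71, adjusted p = 0.576). Without line 47 Met was at 0.64 and Mycn at 0.22, and without line 55 Met was at 0.63. Mycn was at 0.45 with cyclic loess normalization and had a probe set mean of 0.23. Line 53 stood apart in receptor genes. It had the highest Pdgfra of the lines, 13.81, and the lowest Egfr, 3.52. Its Pdgfb, the gene of a ligand of the PDGF receptors, was 12.44, where the other 10 lines were at 4.60 to 5.24 and the cortices at 7.03 to 7.96. Sox10, a factor of the oligodendrocyte lineage, was 11.79, 12.29 and 12.07 in lines 53, 57 and 65 and 5.55 to 9.10 in the other lines, against 8.32 to 9.58 in the cortices. Erbb3, a receptor of that lineage, was high in the same 3 lines, at 9.81, 10.20 and 10.18 against 4.41 to 6.48 in the others. Pdgfb, Sox10 and Erbb3 were named after their values were seen. The connexin gene Gja1 was 9.66 to 11.13 in lines 47, 51, 55 and 59 and at most 6.81 in the others, all below the cortices (12.12 to 12.60). Other genes with a large SD were Gm364, Gdpd3, Nxf3, Fbln2, Ndn, Scg5 and Tspan8. Ndn, an imprinted gene of neurons, was at 9.51 to 11.59 in 8 lines and at 5.21, 5.10 and 3.39 in lines 49, 65 and 68, against 11.30 to 12.57 in cortex.

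**Figure D4:**
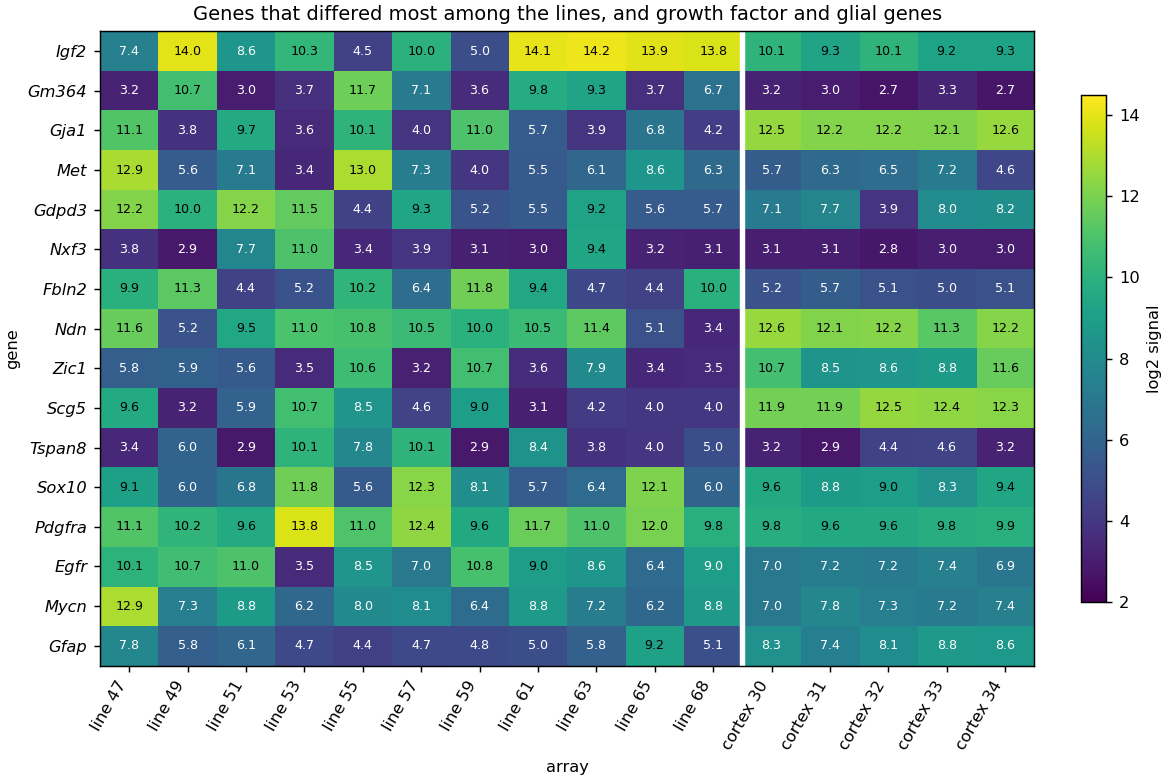
Log2 signal (color and printed value) of 16 genes on the arrays of the 11 glioma lines (left) and 5 cortices (right of the white line). The first 11 rows are the genes with the largest SD among the lines apart from Xist, and the last 5 are receptor, factor and glial genes. Igf2 at 13.79 to 14.16 in 5 lines, Met at 12.91 and 12.96 in lines 47 and 55, and Sox10 at 11.79 to 12.29 in lines 53, 57 and 65 are bright against the other lines in their rows.

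The study followed chromosome 19 in these tumors by karyotype, so signals were also read by chromosome. The median difference from the cortex mean was taken for each chromosome and each line. Chromosome 19, with 611 genes, had the lowest median difference of all chromosomes in the model, -0.10, where the other autosomes and the X chromosome lay between -0.02 and 0.06. On it, 13.9% of the genes rose and 30.3% fell, against 25.5% and 24.3% of all genes. Of the 11 lines, 9 were below 0, with line 65 at -0.34, line 63 at -0.31 and line 61 at -0.22, and lines 49 and 47 at 0.02 and 0.04. These medians describe RNA and not copy number, and they were not tested. The genes of a chromosome are not independent samples.

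**Figure D5:**
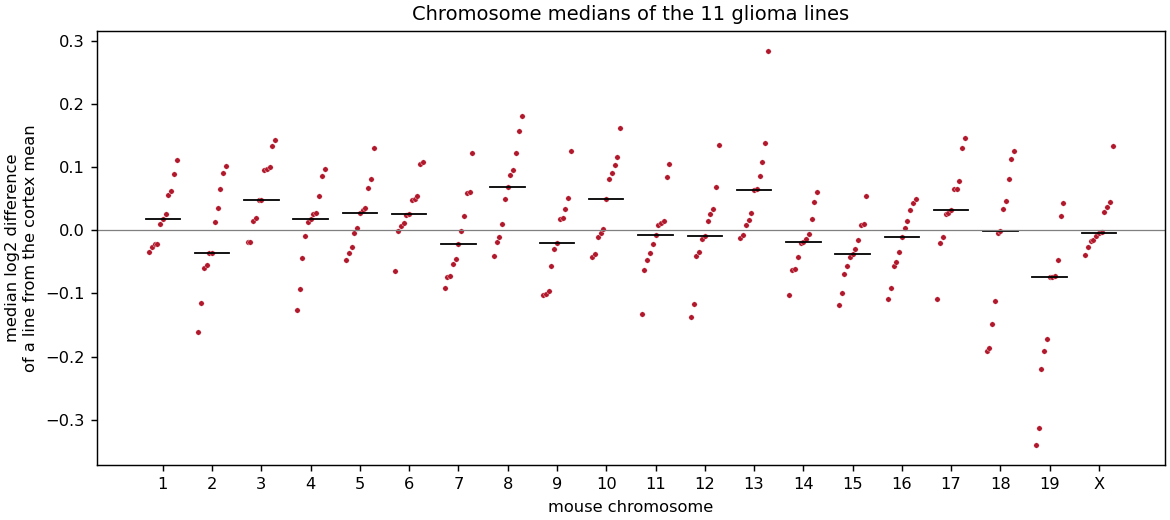
Median log2 difference from the cortex mean (vertical axis) over all genes of each mouse chromosome (horizontal axis), with 1 point for each of the 11 glioma lines and a bar at the median of these points. On chromosome 19 the points run from -0.34 to 0.04 and the bar is lowest, at -0.07.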

How the data were processed

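Total RNA was hybridised to Affymetrix mouse genome arrays, 1 array for each of 40 samples. The authors deposited log2 signals of 45101 probe sets made with RMA, which corrects background, quantile normalizes the arrays and summarises the probes of a set robustly, and the log base was read from the range of the values. Of these, 64 were controls, 34945 named 1 gene, 932 several and 9160 none, which left 18193 genes, each as its brightest probe set over the 40 arrays. Groups came from the sample titles. The 5 groups were fitted together in limma (version 3.58.1, R 4.3.3), with Benjamini-Hochberg adjustment over all genes and a threshold of 0.05, after the code was tested on simulated data. Tables and figures used Python 3.11.15, pandas 2.3.3, numpy 2.4.6, scipy 1.17.1 and matplotlib 3.10.9. Members and gene lists were chosen with earlier results of these data known. Genes were named by a fixed rule: the 15 that rose and the 15 that fell most without overlap, the leading members of each list in its main direction (3) and in the other (2), the first 3 of each list, the 12 with the largest SD among lines, up to 5 changed in opposite directions in lines and R172H gliomas each way, and genes the study names. Alternatives covered cyclic loess, array weights, a filter on dim genes, the mean of all probe sets, other probe set choices, other controls and models, a stricter threshold, the early biopsy lines added, the methods' t-test and each sample left out. List genes that no probe set named alone were not analysed here. Promoters came from RefSeq, build GRCm38.p6, without chromosome 18.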

Additional observations from a re-analysis of the deposited data

Results flagged for a closer look

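Each gene named in the text was checked for a cortex that stood apart, where the gap from the highest or lowest of the 5 cortices to its nearest neighbor, divided by the whole range, exceeded 0.71 (Dixon's critical value at the 95% level). The 11 lines were too many for this check. Of 165 genes, 12 had such a cortex (7.27%), where chance gives about 1 in 20 (5%), and 6 of the 12 were in cortex 33. In cortex 33 the log2 signals that stood below the others were those of Ttr (4.82, others 11.75 to 13.27), Ube2c (3.36, others 4.35 to 4.66), Mcm3 (4.09, others 5.22 to 5.58) and Vegfa (6.95, others 7.30 to 7.40), and those that stood above were Mtor (9.99, others 9.77 to 9.79) and Sqle (10.02, others 9.80 to 9.85). Cortex 34 was low in Vsnl1 (12.05, others 12.31 to 12.41) and Ezh1 (8.28, others 8.57 to 8.67). Cortex 32 was low in Gdpd3 (3.93, others 7.08 to 8.22) and Nxf3 (2.82, others 3.02 to 3.07), cortex 30 was low in Sox4 (9.49, others 9.89 to 9.96), and cortex 31 was high in Fbln2 (5.68, others 5.01 to 5.19).

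Genes that moved one way from cortex in the lines and the other way in the R172H gliomas were chosen by their differences from the cortices. That choice fixes the sign of lines minus gliomas in advance. Lines minus gliomas was 2.26 for Ephx1, 1.81 for Acss2 and 1.35 for Fads1. It was -7.99 for Ctss, -7.42 for C1qb, -7.01 for Srgn, -6.83 for C1qa and -6.72 for Tyrobp. These genes were chosen for this pattern, so the values are a description.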

How the results depend on the processing

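Against cortex, the counts of genes stayed within 1.5 times under every alternative run. With 1 sample left out, 4238 to 4607 genes were higher and 4087 to 4466 lower, and at least 2-fold 2438 to 2571 and 2741 to 2838. Over the other alternatives these counts were 3665 to 5854, 3542 to 5360, 1896 to 2674 and 2496 to 3146. Against the R172H gliomas, 935 to 1679 genes were higher and 1090 to 1482 lower. With cyclic loess normalization 37.6% of the 2-fold calls were higher in the lines, against 47.5% without it. The filter on dim genes kept 12429 genes and moved their median difference to 0.12. The methods' t-test gave 5375 genes higher and 5038 lower at an unadjusted p under 0.05. No paired analysis was possible because the labels do not name the glioma each line came from, although the study paired them, and the replicate numbers are array numbers that no 2 samples share. The test of lines against gliomas therefore leaves out this pairing.

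Some list medians moved by more than the spread between replicates. With cyclic loess normalization they were 1.42 for G1 genes, -1.19 for blood and choroid plexus, -0.53 for PI3K-Akt-mTOR, -0.59 for the respiratory chain, 0.998 for chromatin, 0.49 for Notch, Hedgehog and Wnt and -0.11 for the BCL2 family. With the filter on dim genes they were -5.36 for interneurons, -3.77 for microglia, -2.17 for blood and choroid plexus, -0.30 for receptor tyrosine kinases, 0.82 for Ras-MAPK and 2.20 for brain position, with fewer genes in each list. With the mean of all probe sets they were 1.43 for G1 genes, -3.67 for excitatory synapses, -3.69 for interneurons, -3.41 for channels, -2.58 for myelin, -2.84 for microglia, -1.94 for vessels, -1.52 for blood and choroid plexus, -0.035 for PI3K-Akt-mTOR and 1.09 for chromatin. With only the Cre-positive cortices they were -3.39 for microglia and -1.59 for blood and choroid plexus, and without probe sets that may cross-hybridise -3.11 for microglia. With 1 sample left out, the synapse median ran from -4.72 to -4.29 and that of blood and choroid plexus from -1.60 to -1.18. Some counts of list members moved by over 1.5 times. With cyclic loess normalization 12 in place of 7 PI3K-Akt-mTOR members, 8 in place of 5 glycolysis members and 24 in place of 8 respiratory chain members were lower, while 1 in place of 4 respiratory chain members, 3 in place of 7 interferon members and 1 in place of 3 receptor tyrosine kinase members were higher. With array weights 13 respiratory chain members and 5 in place of 3 Ras-MAPK members were lower, and 5 receptor tyrosine kinase members were higher, as they were in the model without the tumors. With only the Cre-positive cortices 4 respiratory chain and 3 glycolysis members were lower, and 2 respiratory chain and 2 interferon members were higher. With the mean of all probe sets 4 PI3K-Akt-mTOR members were lower. At an adjusted p under 0.01, 2 interferon members and 1 receptor tyrosine kinase member were higher, and 3 glycolysis members, 5 respiratory chain members and 1 brain position factor were lower. With the mean of all probe sets, Rictor (0.60, adjusted p = 0.0193), Tsc1 (0.029, adjusted p = 0.89) and Trp53bp1 (0.051, adjusted p = 0.806) changed sign. Apart from the effect of fewer genes, the cause of these shifts was not tested.

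The arrays give no counts, so precision is limited by the number of arrays and, for dim genes, by the floor of the signal. A fold change of a gene that was dim in 1 group may be larger than measured. Cortices 30 and 34 had less Emx1 than the others, cortex 33 lacked the Ttr signal, and 2 cortices carried another genotype than the other 3. Calls near the threshold, such as those of Acss2, Lhx2 and Lef1, depend on single samples. Culture and tumor origin cannot be told apart.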
